A study of Bos taurus with 13 samples.

Results

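Of 16095 named genes counted in the whole blood of 13 dairy cows, 11 were selected by their own counts as genes read in some cows and silent in others. A gene was taken when it lay on a numbered autosome, had a count of 0 in 3 or more cows and had a count of 30 or more in 2 or more cows. The rule uses no cortisol group, but it was written with earlier results of these data known, among them that *CYP4X1* was read in high cows only. The 11 genes were *MYL2*, *MB*, *DES*, *CYP4X1*, *FOLH1*, *CXCL13*, *ULBP21*, *SLC2A10*, *SLC29A4*, *LYNX1* and *COL26A1*. In the text, a cow carries a gene when it had 30 or more counts of it, so the carriers listed below describe the choice and are not a finding in themselves.

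The samples were blood cells of lactating cows of the breed labelled Italian Red Pied, drawn from the tail vein into PAXgene tubes, which fix RNA at sampling. All cows came from a single commercial farm and no treatment was given, so the groups are the tails of a ranking by cortisol in milk and not an imposed stress. The high group had 7 cows (H1 to H7) and the low group 6 (L8 to L13), each numbered as in the labels. The header of each cow's counts cites a different animal number, and which number is right was not tested. The cow and group given for each count therefore rest on the labels. Globin transcripts had not been removed before sequencing.

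Whole blood RNA comes from white cells, platelets and any immature red cells present. A gene that these cells do not use is normally read at or near 0, and many genes of muscle, liver and nerve are in this class. In such bulk samples, fewer cells of a type and less RNA per cell cannot be told apart.

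Reads counted on named genes ran from 11045599 to 28124575 per cow, with overlapping ranges in the high group (median 18595924) and the low group (median 17005346.5). A count of 0 at these depths allows up to 3 counts, or 0.107 to 0.272 CPM (counts per 1000000 counts on named genes), and this limit covers counting error only. The haemoglobin share, here the summed counts of *HBB*, *HBG*, *HBM* and *HBQ1* only, ran from 0.0114% to 0.815% of named-gene counts. Its median was 0.118% in the high group and 0.0289% in the low group, with overlapping ranges. Cow L11 stood apart in striated muscle genes, as did H3 at a lower level, and results that rest on these cows are given with and without them.

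The rule left 11 genes out of 4024 autosomal genes that were at 0 in 3 or more cows. Another 37 of these reached 30 counts in 1 cow only, and 19 of the 37 did so in L11. With L11 left out, the rule was met by only 4 of the 11, *CYP4X1*, *FOLH1*, *COL26A1* and *SLC29A4*. The 11 genes have 143 values over the 13 cows, of which 62 were 0, 53 lay between 1 and 29 counts and 28 were at 30 counts or more. Of the 28, 15 were in the high group and 13 in the low group. Carried genes were thus found in both groups, and 9 of the 11 genes had a carrier in each. *CYP4X1* was carried in the high group only and *LYNX1* in the low group only.

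**Figure D1:**
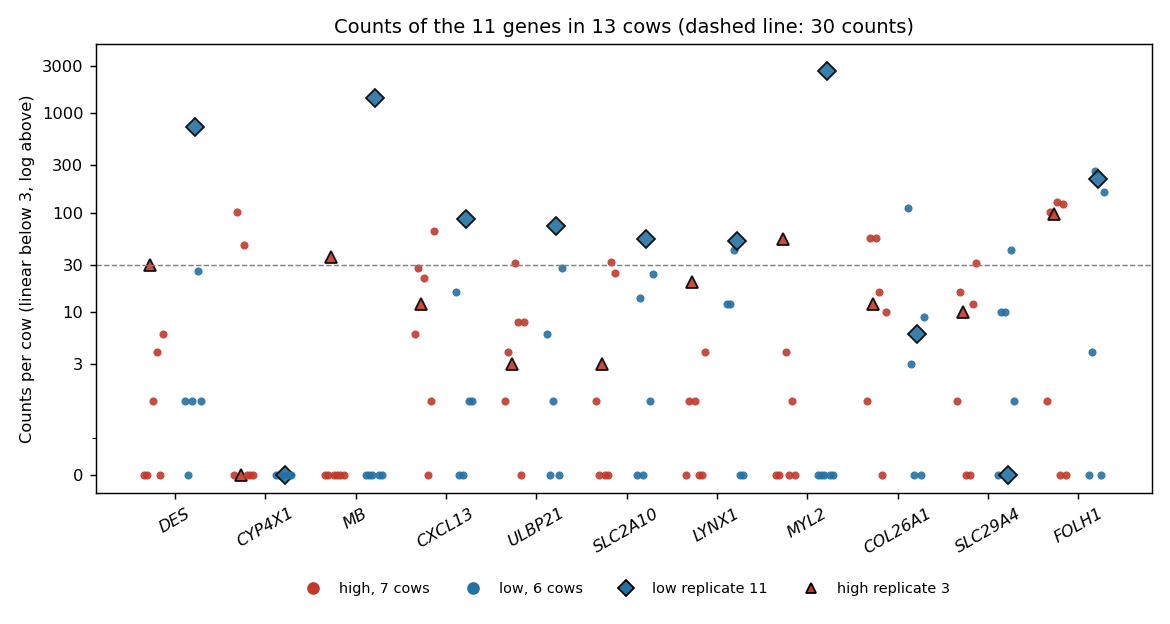
Counts of the 11 genes in each cow, on an axis that is linear below 3 and logarithmic above, with high cows in red to the left and low cows in blue to the right of each gene name; the dashed line marks 30 counts. Cow L11 (diamond) has the highest count of all cows in 7 genes, without regard to depth, and *CYP4X1* and *MB* have no cow between 0 and the carriers.

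The label of genes switched on in some cows fitted only part of the set. For each gene, the CPM of the lowest carrier was divided by the highest CPM of any other cow, with 3 counts in place of a 0. This ratio was 18.1 for *FOLH1*, 15.8 for *MYL2*, 12.4 for *CYP4X1* and 10.9 for *MB*, so the carriers of these 4 genes were separated from the other cows by a wide gap. It was 3.06 for *COL26A1*, 2.09 for *CXCL13* and 1.76 for *SLC29A4*. For *SLC2A10* (1.5), *ULBP21* (1.35), *LYNX1* (1.2) and *DES* (1.04) the lowest carrier was close to the next cow, and the counts were graded. The limits of the rule were narrow as well. Another 11 genes with enough cows at 0 had a second highest count of 24 to 29, among them *TNNT1* (880 and 28 counts) and *CTNNA3* (48 and 29), and 9 genes with 30 counts in 2 or more cows were at 0 in only 2 cows, among them *MYH7*.

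**Figure D2:**
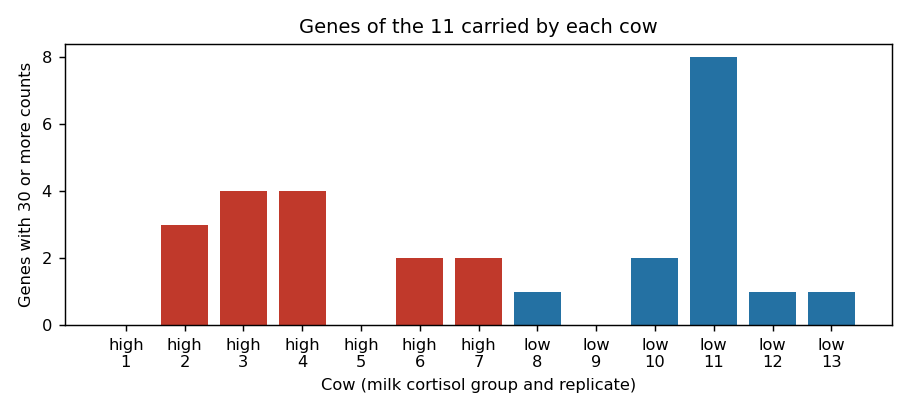
Number of the 11 genes with 30 or more counts in each cow, with bars starting at 0, high cows in red and low cows in blue. Cow L11 carried 8 genes and cows H1, H5 and L9 carried none.

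The number of genes carried differed widely between cows. Cow L11 carried 8 of the 11 and had the highest count of all cows in 7, without regard to depth. In CPM, 2 of these 7 were highest in another cow. *SLC2A10* was highest in H6 (2.13 CPM against 2.07 in L11) and *LYNX1* in L10 (2.53 CPM against 1.96 in L11). Cows H3 and H4 carried 4 each and H2 carried 3. Cows H6, H7 and L10 carried 2 each, cows L8, L12 and L13 carried 1 each, and H1, H5 and L9 carried none. The 2 deepest libraries went different ways, since L8 with 28124575 counts carried 1 gene and L11 with 26529458 counts carried 8.

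The members with known roles in muscle were 3, and they shared the same carriers, L11 and H3. *MYL2* (chromosome 17, 56953813 to 56961603, minus strand, build UMD3.1 for all positions) encodes the regulatory light chain of myosin in slow skeletal fibres and in the heart ventricle. It had 2659 counts in L11 and 54 in H3, then 4 in H4, 2 in H6 and 0 in the other 9 cows. *MB* (chromosome 5, 74170471 to 74181260, minus strand), the gene of the oxygen store myoglobin, had 1442 counts in L11, 36 in H3 and 0 in the other 11 cows. Both genes were thus nearly confined to 1 low cow, with a much weaker signal in 1 high cow. *DES* (chromosome 2, 108075460 to 108082534, plus strand) encodes desmin, the intermediate filament of muscle cells. It had 728 counts in L11, 30 in H3 and 26 in L12, with 0 to 6 in the other cows. Cow L11 held 97.8% of all *MYL2* counts, 97.6% of those of *MB* and 90.8% of those of *DES*.

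Lists of muscle genes were then read in the same cows as a description, since they were drawn up after these values had been seen. In CPM, all 10 genes of the slow-twitch list were highest in L11 and H3 was second in all 10, by little for *MYL3* (0.829 CPM in L11, 0.738 in H3 and up to 0.699 in the other cows) and, in second place, for *MYH7* (2.46 CPM in H3 and up to 2.38 in the others). The summed level of this list was 217 CPM in L11, 13.0 CPM in H3 and 0.142 to 3.71 CPM in the other 11 cows. Slow troponin T, *TNNT1*, had 880 counts in L11, 28 in H3 and 0 elsewhere. Of 17 genes common to striated muscle, 16 were highest in L11, with a sum of 261 CPM against 83.7 CPM in H3 and 35.5 to 64.7 CPM in the other cows. The exception was *TTN*, highest in H3. Cow H3 was second to L11 in 9 of the 17. Of its 83.7 CPM, 55.7 CPM were of *TCAP*, which did not set H3 apart (59.4 CPM in L11 and up to 55.9 CPM in the other cows).

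The other muscle types did not stand out in the same way. Of 10 genes of fast-twitch fibres, 3 were highest in L11. Among these, *MYL1* had 130 counts in L11, 2 in H3 and 0 in the other cows. *CASQ1* had 59 (6 in H3, 0 to 4 in the others) and *MYOZ1* 71 (8 in H3, 7 to 32 in the others). The list summed to 49.6 CPM in L11 against 18.3 to 54.9 CPM in the cows other than L11 and H3. Of the 49.6 CPM, 31.1 CPM were of *PYGM*, which was read in every cow. Of 7 heart genes, 2 were highest in L11, *MYH6* with 31 counts (12 in H3, 0 to 9 in the other cows) and *PLN* with 10 counts (0 in H3, 0 to 4 in the others). *TNNI3*, *NPPB* and *ANKRD1* were at 0 in L11, as they were in 8, 11 and 7 of the 11 cows other than L11 and H3. Of 5 smooth muscle genes, 2 were highest in L11, at a sum of 23.0 CPM within the range of 7.55 to 33.3 CPM of those other cows. None of 9 fibroblast genes was highest in L11. Of the 27 slow-twitch and striated muscle genes, 17 had 6 or more counts in both L11 and H3, and their CPM in L11 was 0.737 to 23.3 times that in H3, with a median of 12.9. How muscle RNA came to be in these samples was not tested.

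**Figure D3:**
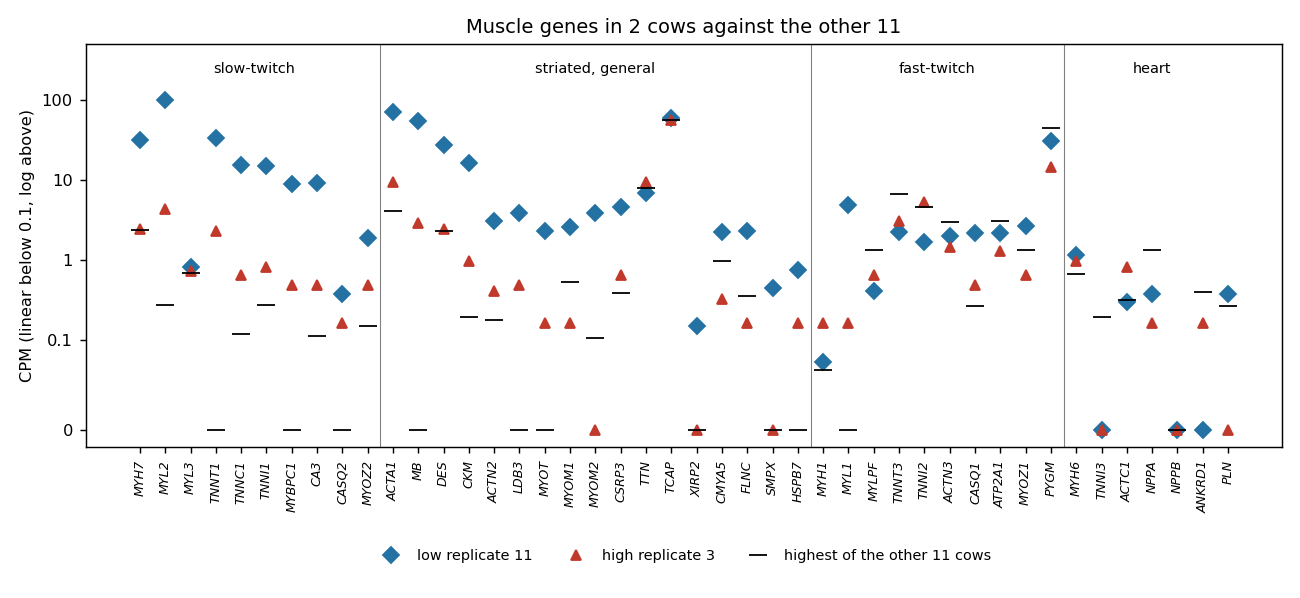
Levels of muscle genes in CPM, on an axis that is linear below 0.1 and logarithmic above, in cow L11 (low replicate 11, blue diamonds), cow H3 (high replicate 3, red triangles) and the highest of the other 11 cows (black bars). Slow-twitch genes are raised in L11 and, less, in H3, while most fast-twitch and heart genes lie within the range of the other cows.

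The other members had other carriers, and the enzymes are given first. *CYP4X1* (chromosome 3, 99666161 to 99714764, minus strand) is a cytochrome P450, a family of haem enzymes that oxidise lipids, steroids and drugs. It had 101 counts in H2 (5.43 CPM) and 48 in H4 (3.36 CPM) and was at 0 in the other 5 high cows and in all 6 low cows. The signal therefore came from 2 cows of 1 group, and the other high cows were not distinguishable from the low cows at this depth.

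Most other P450 genes were read in every cow or hardly at all. Of the 32 P450 genes named in the counts, 19 were at 0 in 3 or more cows and 9 were at 0 in all 13. *CYP11A1*, which starts steroid synthesis from cholesterol, had 14 counts in H4 and 8 in H2, and was at 0 in 10 of the 13 cows. *CYP4B1*, of the same P450 family, had 8 counts in H2 and 0 in H4. The 3 named genes within 100 kb of *CYP4X1* were never at 0, and in H2 and H4 they lay at 86 to 153 counts for *PDZK1IP1*, 879 to 1069 for *TAL1* and 43 to 46 for *STIL*, against 124 to 645, 600 to 1978 and 32 to 85 in the other cows.

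Of all genes tested, those whose log2 CPM followed *CYP4X1* most closely over the 13 cows were *HPD* (Pearson's r = 0.97), *KRT19* (0.85), *CEP76* (0.81), *RWDD3* (0.80) and *TRIM45* (0.79), given as a description of cows with 2 points far from 0. *HPD*, an enzyme of tyrosine breakdown that is typical of liver, had 69 counts in H2, 22 in H4 and 0 to 2 in the other cows. *KRT19*, a keratin of epithelial cells, had 36 counts in H2, 20 in H4 and 0 to 6 elsewhere. Both were at low levels outside the same 2 cows, whereas *CEP76* (182 and 308 counts against 67 to 214), *RWDD3* and *TRIM45* were read in every cow.

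*FOLH1* (chromosome 29, 5904662 to 5977332, minus strand) encodes glutamate carboxypeptidase II, a membrane enzyme that cuts glutamate from folates and peptides. It was the member with the most carriers, 7, of which 4 were high and 3 low. In the high group it had 130 counts in H4, 122 in H6, 102 in H2 and 97 in H3, then 2 in H1 and 0 in H5 and H7. In the low group it had 262 counts in L10, 220 in L11 and 163 in L13, then 4 in L9 and 0 in L8 and L12. The cows fell into carriers at 5.49 to 15.8 CPM and others at 0.303 CPM or less, and both kinds were present in each group. No other named gene lay within 100 kb of it.

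Among the immune ligands, *CXCL13* (chromosome 6, 94039946 to 94046358, plus strand) encodes a chemokine that draws B cells through the receptor CXCR5. It had 86 counts in L11 and 66 in H7. The high group ran from 0 to 66 counts (median 12) and the low group from 0 to 86 (median 2), so the groups overlapped, and 8 cows lay between 1 and 29 counts.

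*ULBP21* (chromosome 9, 88273909 to 88299080, minus strand) belongs to a family of MHC class I-like ligands that natural killer cells recognise. It had 73 counts in L11 and 31 in H4, and L13 followed with 28. The high group ran from 0 to 31 counts and the low group from 0 to 73, both with a median of 4. Its position overlaps that of *RAET1G*, a related gene on the same strand with 8 to 61 counts, so the assignment of reads between the pair is uncertain. Of 10 genes of this ligand family in the counts, 8 were tested between the groups and none passed the test in either direction.

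*LRP11*, a lipoprotein receptor-related gene 90.6 kb from *ULBP21* on the same strand, also varied strongly between cows. It had 124 counts in H4, 68 in H7, 55 in L11, 46 in H2 and 28 in L13, and 2 to 6 in the other 8 cows. The 3 cows with most *ULBP21* were among these 5. Cows H2 and H7, with 4 and 8 counts of *ULBP21*, were not like the others of the 5.

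**Figure D4:**
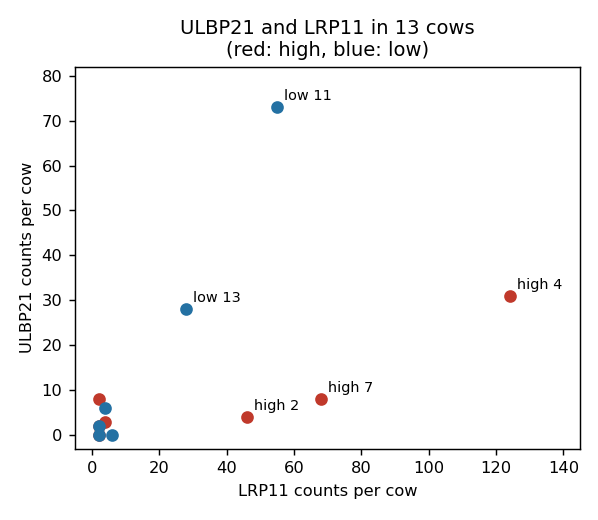
Counts of *ULBP21* against counts of its neighbour *LRP11* in each of the 13 cows, both on linear axes, with high cows in red and low cows in blue. Cows L11, L13 and H4 are high in both genes, H2 and H7 in *LRP11* alone, and the other 8 cows lie near the origin.

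The transporters were graded. *SLC2A10* (chromosome 13, 76091992 to 76103853, plus strand), the glucose transporter GLUT10, had 55 counts in L11 and 32 in H6, followed by 25 in H7 and 24 in L13. It was at 0 in 5 cows, 3 of them high. *SLC29A4* (chromosome 25, 39515688 to 39526238, minus strand), which carries monoamines across the cell membrane, had 42 counts in L12 and 31 in H7, and 0 in H4, H5, L8 and L11. It was 1 of 3 members not carried by L11, beside *CYP4X1* and *COL26A1*. For both transporters, the groups overlapped over most of their range. Of 340 solute carriers in the counts, 233 were tested, 2 were higher and 7 lower in the high group at an unadjusted p below 0.05, and none passed after adjustment.

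*LYNX1* (chromosome 14, 2814587 to 2816685, plus strand) encodes a small protein anchored to the cell surface that modulates nicotinic acetylcholine receptors. It had 52 counts in L11 and 42 in L10, then 20 in H3 and 12 in L8 and L9. The low group ran from 0 to 52 counts (median 12) and the high group from 0 to 20 (median 2), so the groups overlapped although both carriers were low. *COL26A1* (chromosome 25, 35776553 to 35960746, minus strand), a collagen of the extracellular matrix, had 112 counts in L8 and 56 in each of H2 and H4. It was at 16 counts or less in all other cows, with 0 in H6, L10 and L12. Relative to depth, L8 and H4 were nearly level, at 2.16 and 2.13 CPM per kb of exon. Of 41 collagen genes in the counts, 21 were tested and none passed after adjustment, with 2 higher and 1 lower in the high group at an unadjusted p below 0.05.

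Levels of different genes were compared per length of exon. At its highest cow, *MYL2* reached 128.8 CPM per kb, *MB* 50.2 and *DES* 12.3, all in L11. *FOLH1* reached 4.37 on this scale, and the other members 0.944 (*SLC2A10*) to 3.49 (*CYP4X1*). The 3 muscle genes in L11 were thus above every other member in any cow on this scale.

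The members did not form shared loci. They lay on 10 chromosomes, and 1 of the 55 pairs, *COL26A1* with *SLC29A4*, was on the same chromosome. No pair was within 1 Mb. The carriers of this pair did not overlap, since *COL26A1* was carried by H2, H4 and L8 and *SLC29A4* by H7 and L12. Of the 55 pairs, 34 shared at least 1 carrier, 28 of them L11, and 15 shared a carrier other than L11. Only the 3 pairs among *MYL2*, *MB* and *DES* had the same carriers. Around the members, 35 other named genes lay within 100 kb, of which 24 were never at 0 and 11 were at 0 in 3 or more cows without reaching 30 counts in 2.

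Low counts in these tables were mostly even numbers. Of the 81 member counts above 0, 68 were even (84.0%), against 72.0% of all gene counts from 1 to 20 and 50.8% of those above 100 and up to 1000. The header of the tables names no option for read pairs, and how many fragments stand behind an even count was not tested.

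The comparison of the groups asks whether milk cortisol and these genes went together. It was fitted over the 11740 genes with 10 or more counts in 2 or more cows, a filter that all 11 members passed. In edgeR's quasi-likelihood test with Benjamini-Hochberg adjustment, not a gene of the 11740 was called at an adjusted p of 0.05 (0 genes, 0%), and the smallest adjusted p was 0.999. At an unadjusted p below 0.05 there were 262 genes, or 2.23% of those tested, with 121 higher and 141 lower in the high group. DESeq2 called 1 gene, *CYP4X1*, and had 348 genes at an unadjusted p below 0.05. In edgeR, no member was called after adjustment. Before adjustment, 4 of the 11 members were below 0.05. All 4 of these were genes with 2 carriers, and 3 of them were the muscle genes of L11. Without H4, a carrier of *CYP4X1*, none of the 11 was below 0.05, and without L11 these were *CYP4X1*, *CXCL13* and *MYL2*.

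Of the 4, *CYP4X1* was higher in the high group, at 1.26 ± 2.23 CPM (SD, n = 7) against 0 in all 6 low cows. The observed mean of the high cows was 4.62 times the limit of 3 counts in the shallowest low library, 0.272 CPM. This ratio covers counting error in the low cows only, takes each count as independent and leaves out the variation between cows. The fitted log2 fold change was 7.54 ± 2.78 (SE), which depends on the count added to the zeros and is no lower bound, with an unadjusted p of 0.0226 and an adjusted p of 0.999 in edgeR's quasi-likelihood test. An exact two-sided permutation test of its log2 CPM over all divisions of the cows into 7 and 6 gave p = 0.462, but with 11 cows tied at 0 the smallest possible p was 0.192, so this test could not reach 0.05. In DESeq2 its adjusted p was 2.34e-08, at a log2 fold change of 21.3 ± 3.01 (SE) against a low group with no count. *CYP4X1* met the rule and the filter of the fit through high cows only. Its p values therefore describe the counts that chose it and are no separate support for a group difference. Its direction rested on 2 of 7 high cows.

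The muscle genes were lower in the high group as long as L11 was counted. The mean of *MYL2* was 0.691 ± 1.65 CPM (SD, n = 7) over high cows and 16.7 ± 40.9 CPM (SD, n = 6) over low cows. Its log2 fold change was -4.85 ± 1.96 (SE). That of *MB* was -4.72 ± 1.94 and that of *DES* -3.72 ± 1.5. Their unadjusted p values in edgeR were 0.0267, 0.0289 and 0.0269. The exact permutation p was 0.878 for *MYL2*, where cows tied at 0 allow no p below 0.021, and 0.365 for *DES*. That of *MB*, with 11 cows tied at 0, could not fall below 0.192 and is not given. Without L11 the log2 fold change of *MYL2* turned to 6.45 ± 2.68, with an unadjusted p of 0.0343 in edgeR, and that of *MB* to 5.69 ± 2.80. In both, the low group was then at 0 in all cows and the high group rested on H3. The value of *DES* went to -0.30 ± 1.24. With L11 and H3 both left out, *MB* had no count in any cow.

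**Figure D5:**
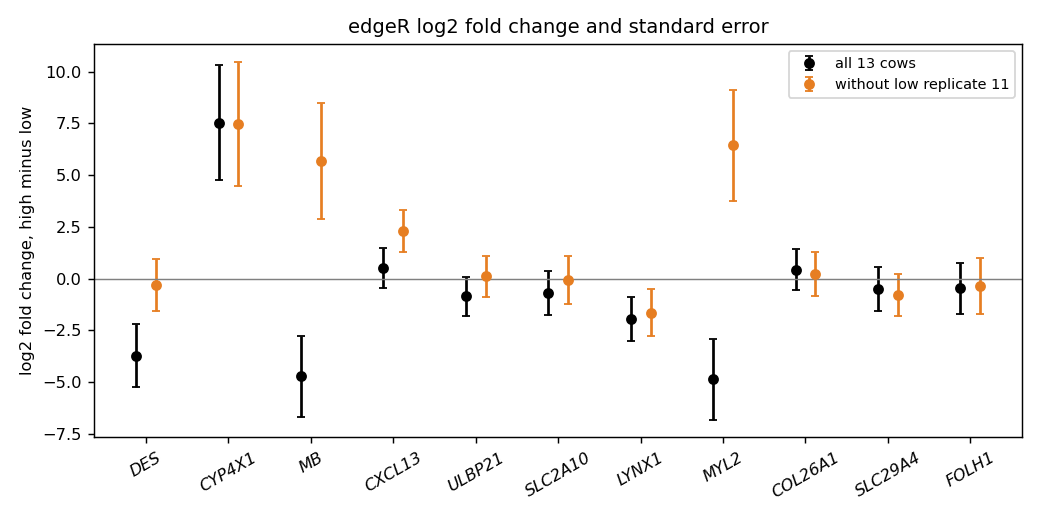
Log2 fold change of the high against the low group for the 11 genes, with the standard error as bars, from edgeR with all 13 cows (black) and without cow L11 (low replicate 11, orange). *MYL2* and *MB* change direction without L11, *CYP4X1* stays near 7.5, and most other genes have bars that cross or come near 0.

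For the other 7 members, the group difference was less than 2 standard errors with all cows. The high cows averaged 0.297 ± 0.597 CPM of *LYNX1* (SD, n = 7) and the low cows 0.970 ± 1.06 CPM (SD, n = 6). The log2 fold change of *LYNX1* was -1.95 ± 1.05 (SE), with an unadjusted p of 0.0821 in edgeR. It was -3.72 ± 1.06 without H3 (unadjusted p of 0.00304), -3.41 ± 1.11 without H3 and L11 (unadjusted p of 0.00827), and -2.21 ± 1.01 without L13 (unadjusted p of 0.0437). The adjusted p of these fits was 0.991 or more. With each other cow left out, the unadjusted p in edgeR was 0.0506 (without L12) to 0.219 (without L10, log2 fold change -1.40). For *LYNX1* with all cows, the unadjusted p was 0.260 in DESeq2 and the exact permutation p was 0.191. *LYNX1* met the rule through low cows only, and H3 had the most counts of it among the high cows. The p values of *LYNX1*, with or without H3, therefore partly describe the counts that chose it. They are no separate support for a group difference. *ULBP21* (-0.84), *SLC2A10* (-0.67), *SLC29A4* (-0.50) and *FOLH1* (-0.47) were also negative, and *CXCL13* (0.52) and *COL26A1* (0.44) positive, each with a standard error of 0.943 to 1.25. *CXCL13* moved to 2.31 ± 1.00 without L11, with an unadjusted p of 0.0356 in edgeR and an adjusted p of 0.969. In all, 3 members were higher and 8 lower in the high group with all cows, and 6 were higher and 5 lower without L11.

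Variation between cows of the same group was large for every member, as the rule implies. The coefficient of biological variation in the fit was 1.23 (*ULBP21*) to 4.43 (*MB*), with a median of 1.54 against 0.231 over all genes tested. The median size of the log2 fold change, without its sign, was 0.84 for the members and 0.12 over all genes. The rule favours large sizes between any sets of cows, so this contrast is no measure of a difference by cortisol.

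Other measures of the cows were set beside the carriers. These were 11 scores of blood cell types and states, the depth and the haemoglobin share. The carriers and the other cows overlapped in all of them for 9 of the 11 members. The exceptions were *ULBP21*, whose carriers H4 and L11 had the lowest B cell scores by a narrow margin (-0.333 and -0.335 against -0.326 to 0.644 on the log2 scale), and *SLC29A4*, whose carriers H7 and L12 had the highest plasma cell scores (0.374 and 0.881 against -0.719 to 0.275). Over 11 members and all these measures, a few sets of 2 carriers would stand at an end by ordering alone. The exceptions are therefore given as a description. With 2 carriers each, the part of these cells in the counts was not tested.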

How the data were processed

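The authors deposited whole-number counts of reads per gene name, without normalization. Per the file headers, reads on exons were counted with featureCounts by gene name on Ensembl release 88 models of UMD3.1, where options for strand, for pairs and for multi-mapping reads are absent, while the submitters' processing notes name STAR 2.7.3, Subread 1.6.5 and ARS-UCD1.2. Positions are those of the deposited tables. The same headers cite alignments whose animal numbers differ from those of the deposited names, and whose storage location is labelled as goat. The reason for this was not tested. Genes without a name shared 1 entry with 13.9% to 16.7% of counts, which was left out.

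CPM are counts per 1000000 named-gene counts of a cow. Groups were compared with edgeR 4.0.16 (TMM, robust quasi-likelihood) in R 4.3.3, without covariates, over genes with 10 or more counts in 2 or more cows, with Benjamini-Hochberg adjustment. The test was tried on simulated counts. The log2 CPM used for correlations and permutation tests had a prior count of 2. Neighbours were named genes within 100 kb. A cell score is the mean of centred log2 CPM over its list.

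The alternatives were RLE factors, filterByExpr, no filter beyond 1 count, DESeq2 1.42.0, a fit that was not robust, the log2 haemoglobin share as a covariate, each cow left out, other limits of the rule, and, added after seeing the data, L11 and H3 left out together. The members and lists were chosen with earlier results of these data known. Genes named were all members, by their gap, p, family or locus, and the 5 genes most correlated with *CYP4X1*; muscle lists, genes near the limits of the rule and *LRP11* were named after their values were seen. Of the 10 cows per tail stated in the labels, those without counts here were not analysed. A planned search of promoters for motifs was not run, since no promoter sequences were used here.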

Additional observations from a re-analysis of the deposited data

Results flagged for a closer look

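In each group, the highest and the lowest cow of each member were set against their neighbours by Dixon's ratio, the gap to the nearest cow divided by the range of log2 CPM, with limits of 0.568 for 7 cows and 0.625 for 6. Of 42 comparisons, 6 passed the limit. These are a description, since the rule chose genes with several cows at 0 and a few high ones, so the usual chance rate of 1 in 20 groups does not apply, and the ratios of 1.0 follow from all other cows of the group being at 0. The low cow L11 stood above its group in *MYL2* (ratio 1.0, 2659 counts) and *MB* (ratio 1.0, 1442 counts). The high cow H3 stood above its group in *MB* (ratio 1.0, 36 counts), *MYL2* (0.676, 54 counts), *LYNX1* (0.643, 20 counts) and *DES* (0.6, 30 counts). *MYL2*, *MB* and *DES* are muscle genes, and *LYNX1* was in no muscle list used here. *DES* in L11 (728 counts) was within the limit, with 26 counts in L12.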

How the results depend on the processing

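The number of genes found by the rule was 32 with 20 counts in place of 30, 4 with 50 counts, 20 with 0 in 2 cows, and 4 to 11 with 1 cow left out, the lowest without L11. With limits of 0.1 and 2 CPM in place of counts it was 12, of which 9 were members. *LYNX1* and *SLC29A4* were then lost, and *MYH7*, *TNNT1* and *CYP17A1* came in. Membership of these genes thus depended on counts not scaled to depth. Without L11, and without L11 and H3 together, *CYP4X1*, *FOLH1*, *COL26A1* and *SLC29A4* were left. DESeq2 called 1 gene over all genes and 1 member where edgeR called 0, and left 3 members without a p; its calls were *CYP4X1* both times. Members at an unadjusted p below 0.05 numbered 4 in the reported fit, 0 of 2 tested under filterByExpr, 1 in DESeq2, and 0 (without H4) to 5 with 1 cow left out; without H4, *CYP4X1* had an unadjusted p of 0.0526 in edgeR. All genes at that limit numbered 414 without a filter beyond 1 count, 143 with the haemoglobin covariate, and 229 (without L10) to 413 (without H2; 402 without H5) with 1 cow left out. Of 210 log2 fold changes of members under alternatives, 198 kept their direction and 12 turned. Those of *CYP4X1*, *DES* and *LYNX1* never turned. The haemoglobin covariate turned *CXCL13* (-0.27) and *FOLH1* (0.70) and moved *DES* to -7.27, *MB* to -9.91, *MYL2* to -9.83 and *CYP4X1* to 10.01, at unadjusted p of 0.0029, 0.00434, 0.00428 and 0.00198 in edgeR, none below 0.05 after Benjamini-Hochberg adjustment. With 1 cow left out, the range was -0.0699 to 2.58 for *COL26A1* (lowest without H4), -0.0368 to 2.31 for *CXCL13* (lowest without H7), -0.74 to 0.19 for *FOLH1* (highest without L10), -10.41 to 5.69 for *MB*, -8.11 to 6.45 for *MYL2*, -0.95 to 1.07 for *SLC29A4* (highest without L12) and -1.89 to 0.12 for *ULBP21*, the highest of *MB*, *MYL2* and *ULBP21* being without L11. With L11 and H3 out, *MYL2* was at 3.16, *SLC2A10* at 0.0218 and *ULBP21* at 0.22. The cause of these changes was not tested. The haemoglobin share itself had a higher median in the high group, so this covariate is not separate from the group. No paired analysis was possible because the groups are different cows from the tails of a ranking, and the labels name no pairs. With 10 counts in place of 30, carriers rose to 6 for *CXCL13* and *COL26A1*, 5 for *SLC2A10* and *LYNX1*, and 7 for *SLC29A4*. A gene at 0 may have been present below 3 counts.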

Other observations

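Of the genes that reached 30 counts in 1 cow only, cow H2 had *HPD*, *KRT19* and *TDO2*, the last an enzyme of tryptophan breakdown typical of liver, and cow H4 had *DCN*, *KLRF2* and *ELOVL3*. Cow L8 had *PROC*, *PID1*, *DNER*, *GALNTL5* and *STUM*, and cows L9, L10, L12 and L13 had none. The 19 such genes of L11 included *MYL1*, *CKM*, *CA3*, *TNNI1* and *TNNC1* of muscle, and *ACAN*, the aggrecan of cartilage. These genes were chosen after their values were seen and are given as values only.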
